A study of Saccharomyces cerevisiae S288C with 18 samples.

Results

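The cell wall and cell wall integrity genes described here are 36 genes of Saccharomyces cerevisiae, out of 6692 genes in the RNA-seq count table, and they were listed by name for what they do in the wall. Of these, 6 belong to cell wall integrity signalling, 7 make the wall polymers or their precursors, 8 are enzymes that remodel or process the wall, 4 are Pir proteins and 11 are other mannoproteins. Expression was measured in strain S288C grown in RPMI-1640, in 6 groups of 3 biological replicates. Amphotericin B at 0.03 µg/mL for 60 min (AMB), the same amphotericin B concentration with bovine lactoferrin at 2 µg/mL for 50 min (AMB-LF), and lactoferrin alone at 2 µg/mL for 50 min (LF) each had its own untreated control, taken at 60, 50 and 50 min in that order. Amphotericin B is an antifungal drug that binds ergosterol in the fungal membrane, and lactoferrin is an iron-binding milk protein. Cultures under AMB and AMB-LF were harvested when growth was inhibited to a similar partial degree, and lactoferrin alone did not slow growth visibly. AMB and AMB-LF thus differ in time as well as in lactoferrin, and these cannot be told apart.

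The yeast wall is a mesh of beta-1,3-glucan, beta-1,6-glucan and chitin with mannoproteins on its outside. Stress on the wall is sensed at the membrane by proteins such as Wsc1 and Mid2, which act through the GTPase Rho1 on protein kinase C (Pkc1). Pkc1 starts a kinase cascade that ends in the MAP kinase Slt2, and Slt2 acts on transcription through the factors Rlm1 and SBF.

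The AMB and AMB-LF libraries and their controls were read on a HiSeq over 2 lanes, with 6799569 to 9696467 counts each, and the LF libraries and their control on a NextSeq with 23925944 to 30172836 counts each. The platforms used different library kits, so levels were not compared between them. The sources disagree on the 6 untreated HiSeq libraries: the sample labels, which are followed here, and a supplementary plot of the study assign the same libraries to opposite treatments, and the growth description also gives the control times of 50 and 60 min the other way round. The changes under AMB and AMB-LF were therefore also computed with the controls exchanged and with all 6 pooled, and the difference between them with the controls exchanged. The control for AMB-LF was read entirely on lane 1, and its TMM factors of 1.10, 1.05 and 1.02 lay above those of every other HiSeq library. The labels give S288C, a strain usually kept as alpha mating type, and no mating type. Across all 18 libraries the 6 a-type markers summed to 1889 to 2918 CPM and the 4 alpha-type markers to 68.6 to 92.3 CPM, with the alpha pheromone gene MF(ALPHA)1 at 0.125 to 0.81 CPM. Under AMB 4 of the 6 a-type markers were lower than in the control, beside 18.4% of all genes. Of 3 tested alpha-type markers 2 were higher there, beside 18.7%. Under AMB-LF 1 a-type marker was higher and 1 alpha-type marker lower, beside 14.1% and 15.1%. With the controls exchanged 1 a-type marker was higher and 1 lower under AMB, and 5 were lower under AMB-LF. Between the untreated HiSeq groups all 6 were lower in that for AMB-LF, beside 906 of 5456 genes. The part of this in the member results was not tested.

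Levels are CPM, counts scaled by TMM to a common library size, and are shares of a library, so that fewer transcripts per cell and fewer cells that carry a transcript cannot be told apart. Changes are log2 fold changes with standard errors (SE). The SE was worked back from the test, as the absolute change divided by the square root of its F statistic. A gene counts as called where edgeR's quasi-likelihood test gave an adjusted p below 0.05 (Benjamini-Hochberg, over 5456 genes on the HiSeq and 5445 on the NextSeq). Of the 36 members, 35 were tested on both platforms. The exception was DAN1, a mannoprotein gene that is switched on without oxygen, which lay between 0.232 and 1.7 CPM in all 18 libraries, below the minimum of 7 CPM. Per kilobase of coding sequence, the mean level of the tested members in the control for AMB ran from 19480 CPM for CCW12, a major mannoprotein of the outer layer, over 9025 CPM for CWP2 and 3285 CPM for SED1, down to 5.37 CPM for FLO11, a flocculin used in adhesion.

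Under AMB 8 members were higher and 5 were lower than in the control, and under AMB-LF 7 were higher and 5 were lower. The members that rose were led by CWP1, TIR2, KDX1 and SLT2 under AMB and by UTR2, PIR3 and FLO11 under AMB-LF, and the largest falls were those of FKS2 and SCW10 under AMB and of FKS2 and YPS1 under AMB-LF. Among all genes tested, 18.7% were higher and 18.4% lower under AMB (37.1% called), against 13 of 35 members (37.1%). Under AMB-LF 14.1% of all genes were higher and 15.1% lower (29.2% called), against 12 of 35 members (34.3%). The share of members called was thus near the background in both comparisons. The median log2 fold change of the members was 0.01 under AMB, beside -0.02 over all genes, and 0.16 under AMB-LF, beside -0.01. With library sizes alone as scaling the AMB-LF medians were 0.07 for the members and -0.10 for all genes. SLT2, KDX1, PIR3 and FLO11 were higher under both treatments, and FKS2, SCW10, CIS3 and CWP2 were lower under both. The other calls were HSP150, CWP1, CCW14 and TIR2 (higher) and GAS1 (lower) under AMB, and MID2, CHS1 and UTR2 (higher) and YPS1 (lower) under AMB-LF.

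**Figure D1:**
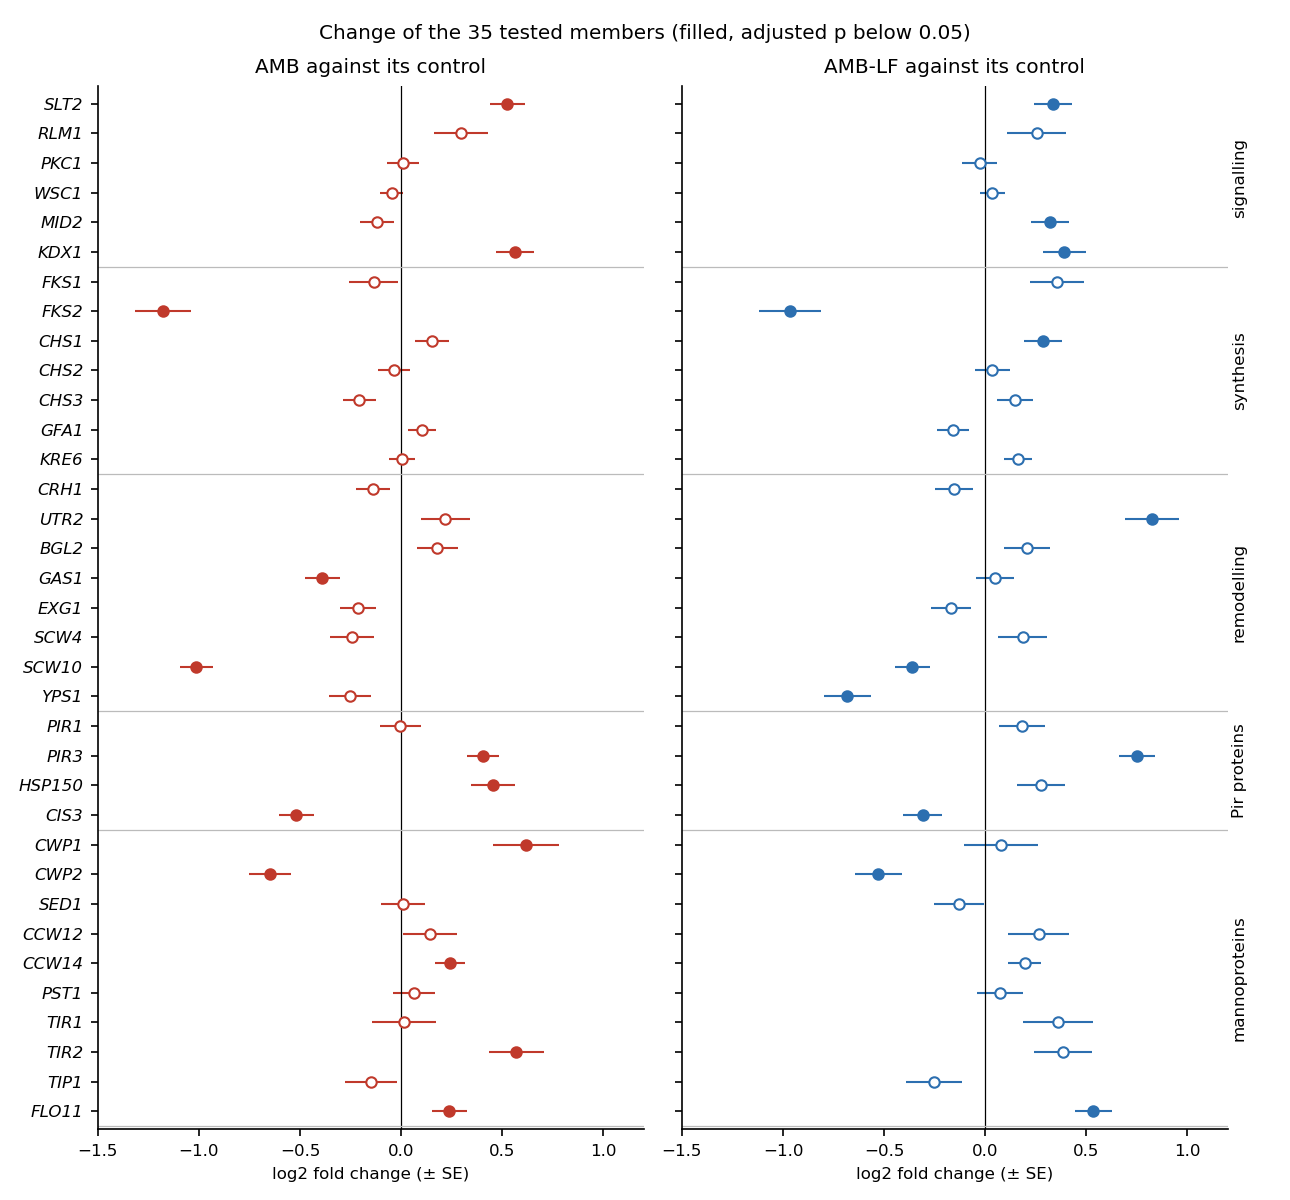
Log2 fold change with its SE of each of the 35 tested members under AMB (left) and AMB-LF (right) against the labelled control, with n = 3 per group, in the order of the members' roles. Filled points were called. FKS2 lies farthest to the left in both panels (-1.18 and -0.96), while UTR2 (0.82) and PIR3 (0.75) lie farthest to the right under AMB-LF.

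Most of these calls were also made with the other choices of control. These choices share the treated libraries, and the pool contains the labelled controls, so they are not independent. The share of all called genes that kept their call is not given here, so this cannot be read as particular to the members. With the controls exchanged, 15 members were called under AMB (35.3% of all genes) and 14 under AMB-LF (32.5%). With the 6 controls pooled, 13 were called under AMB (24.2% of all genes) and 10 under AMB-LF (17.6%). Under AMB 10 members were called in the same direction with the labelled, the exchanged and the pooled controls, namely SLT2, KDX1, PIR3, HSP150, CCW14 and TIR2 (higher) and FKS2, SCW10, CIS3 and CWP2 (lower), and GAS1, CWP1 and FLO11 were not. Under AMB-LF 9 members were so called, namely SLT2, KDX1, CHS1, PIR3 and FLO11 (higher) and FKS2, SCW10, CIS3 and CWP2 (lower), and MID2, UTR2 and YPS1 were not. Within lane 1, all 13 members called under AMB and all 12 called under AMB-LF had the same direction as in the fit of both lanes. Lane 2 held no control for AMB-LF, and for AMB all 13 had the same direction there. The libraries of each lane were part of the fit that called these members, so this is no separate test of their direction. Fewer members were called without control for AMB replicate 1 or without AMB-LF replicate 1, each the only library of its group on lane 1. Without the former 3 members were higher under AMB, beside 10.2% of all genes. Without the latter 4 were higher and 1 was lower under AMB-LF, beside 5.49% and 3.14% of all genes. AMB-LF then lay wholly on lane 2 and its control wholly on lane 1, so that fit told treatment from lane only through the lane term. The share of all genes called fell in the same fits, to 17.9% under AMB and 8.63% under AMB-LF.

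**Figure D2:**
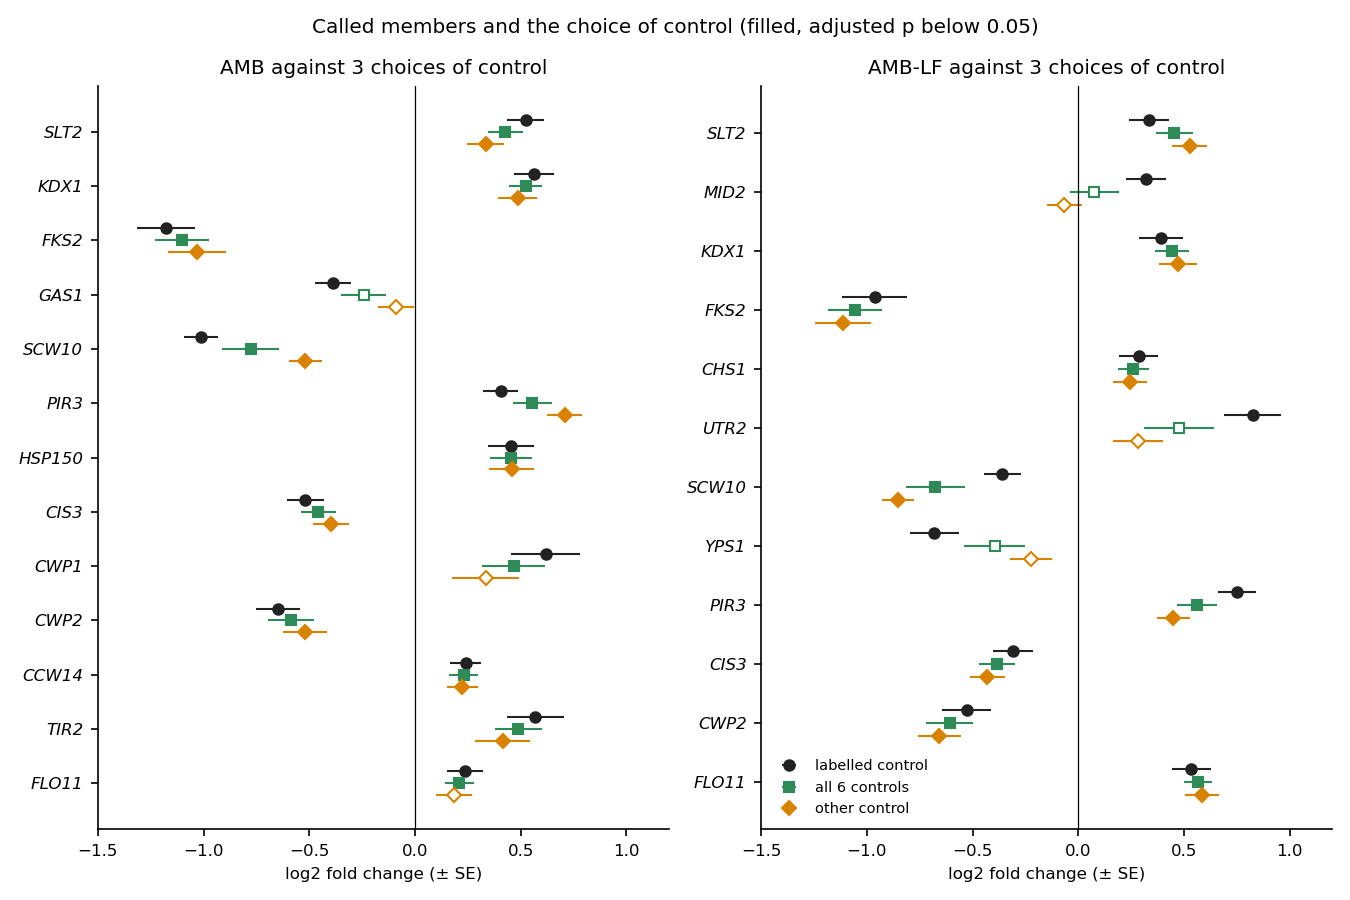
Log2 fold change with its SE of the 13 members called under AMB (left) and the 12 called under AMB-LF (right), against the labelled control (circles), all 6 untreated HiSeq libraries (squares) and the control labelled for the other treatment (diamonds). Filled points were called. FKS2, CIS3, CWP2, SLT2 and KDX1 stay filled and on the same side of 0 throughout, whereas MID2 under AMB-LF goes from 0.32 to -0.07.

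In the signalling group the kinase gene SLT2 (YHR030C, chrVIII:168890-170344) was measured at 122, 110 and 126 CPM in the control for AMB and at 162, 196 and 164 CPM under AMB. In that for AMB-LF it was at 147, 129 and 143 CPM and under AMB-LF at 171, 167 and 178 CPM. All 6 treated libraries lay above all 6 untreated ones. The change was 0.53 ± 0.087 (adjusted p = 0.00098) under AMB and 0.34 ± 0.096 (adjusted p = 0.022) under AMB-LF, and without AMB-LF replicate 1 the latter was 0.43 with an adjusted p of 0.065. KDX1 (YKL161C, chrXI:149386-150687), which encodes a protein kinase-like relative of Slt2 and is a known target of Rlm1, moved in the same direction. It went from 36.4, 32.1 and 34.2 CPM to 49.8, 55.8 and 48.0 CPM under AMB and from 40.1, 35.3 and 35.4 CPM to 44.6, 46.5 and 51.4 CPM under AMB-LF, again with no overlap between treated and untreated libraries. The changes were 0.56 ± 0.094 (adjusted p = 0.0010) and 0.39 ± 0.10 (adjusted p = 0.015).

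The other 4 signalling genes gave fewer calls. RLM1 (YPL089C, chrXVI:379120-381150), the transcription factor gene itself, was at 54.8, 54.2 and 54.2 CPM in the control for AMB, 64.4, 73.1 and 62.8 CPM under AMB, and 58.7, 43.3 and 55.3 CPM in the control for AMB-LF against 58.3, 56.6 and 73.9 CPM under AMB-LF. The AMB libraries stood above their control and the AMB-LF libraries overlapped theirs, and neither change was called (0.30 ± 0.13, adjusted p = 0.10 and 0.26 ± 0.15, adjusted p = 0.21). PKC1 (YBL105C, chrII:14241-17696) was at 138, 144 and 138 CPM in the control for AMB and 142, 141 and 136 CPM under AMB, and at 150, 125 and 155 CPM in the control for AMB-LF against 136, 146 and 144 CPM under AMB-LF. The sensor gene WSC1 (YOR008C, chrXV:341278-342414) stood at 186, 175 and 178 CPM and 182, 181 and 168 CPM in the first pair of groups, and at 179, 172 and 183 CPM and 179, 180 and 169 CPM in the other. For PKC1 and WSC1 every treated group overlapped its control, and the log2 fold changes were 0.01 and -0.05 under AMB and -0.03 and 0.03 under AMB-LF, with SEs of 0.055 to 0.087.

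MID2 (YLR332W, chrXII:790676-791806), the other sensor gene, was at 65.8, 59.2 and 55.3 CPM in the control for AMB and 55.8, 53.8 and 59.5 CPM under AMB, which overlapped. It was at 45.4, 48.4 and 49.6 CPM in the control for AMB-LF against 62.3, 53.1 and 56.6 CPM under AMB-LF, which did not. The change was -0.12 ± 0.085 (adjusted p = 0.30) under AMB and 0.32 ± 0.094 (adjusted p = 0.024) under AMB-LF. The treated groups overlapped each other, and the control for AMB-LF stood lowest, with -0.39 ± 0.094 (adjusted p = 0.0090) against the control for AMB. After the exchange of controls the changes were 0.27 (adjusted p = 0.03) under AMB and -0.07 (adjusted p = 0.57) under AMB-LF, so the direction of MID2 depends on which control is used. Of its coding sequence 32.8% overlaps JIP3 on the other strand, and the authors counted without regard to strand and left out reads in such overlaps, so MID2 was counted from the rest of the gene.

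**Figure D3:**
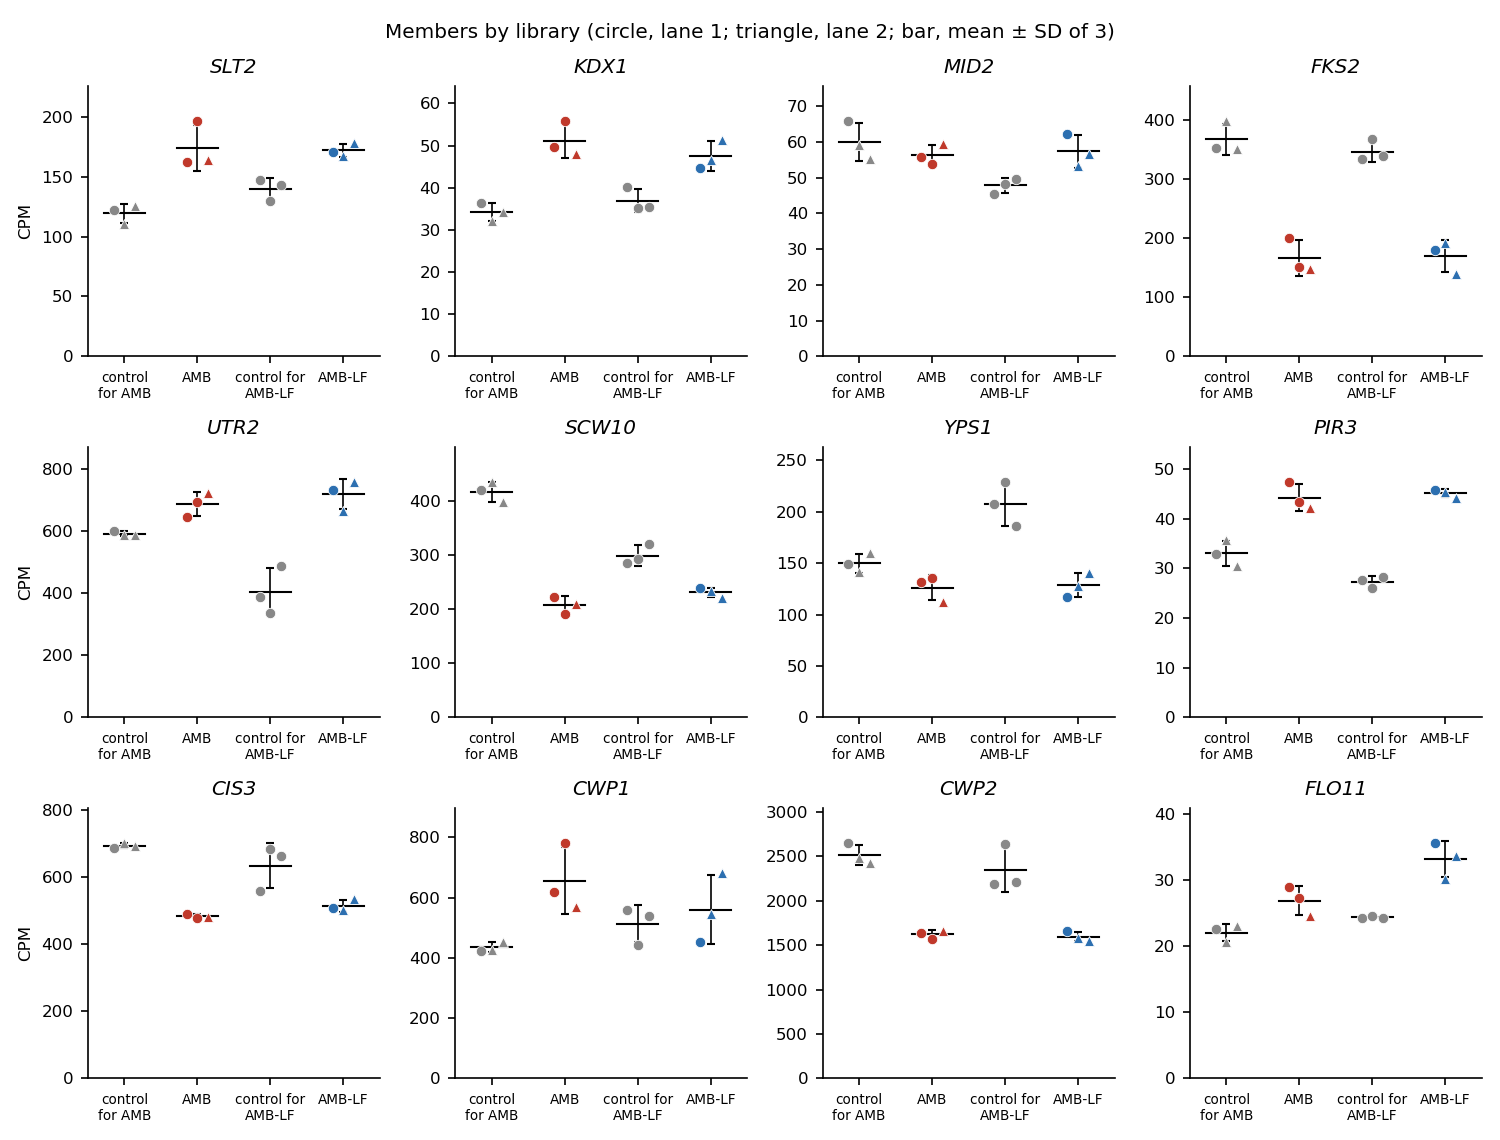
CPM of 12 members in the 12 HiSeq libraries by group, with circles for lane 1, triangles for lane 2, and bars for the mean ± SD of 3 libraries. The treated libraries of FKS2 lie between 139 and 200 CPM and the untreated ones between 333 and 397 CPM, while for UTR2, SCW10 and YPS1 the untreated groups also lie apart from each other.

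Rlm1 binds a spaced motif, CTA and TAG with 4 bases between that are each A or T, and the stretch before each gene was searched for it because Rlm1 is the factor that Slt2 acts on. The motif reads the same on both strands. It was present in the 600 bases before the start codon of 10 of the 36 members (27.8%) and of 124 of 6024 genes with a full stretch (2.06%). The limit to A or T was set after seeing the data. The members were listed by name with known Rlm1 targets among them, so these shares are no test of enrichment. The 10 members were RLM1, BGL2, YPS1, PIR3, HSP150, CWP1, SED1, CCW12, CCW14 and PST1, and several of these are known as Rlm1 targets. Under AMB 4 of them were higher, 0 were lower and 6 were not called, and under AMB-LF PIR3 was higher, YPS1 was lower and 8 were not called. Of all genes tested 18.7% were higher and 18.4% lower under AMB, and 14.1% and 15.1% under AMB-LF. SLT2 and KDX1 have no such motif in this stretch. The following 30-base windows from the R64 genome, each on the strand of its gene with the motif in capitals, are those of the members called under at least 1 treatment.
YPS1 (chrXII:388708-388737, lower under AMB-LF): acaatagacaCTATATATAGacactttttc
PIR3 (chrXI:144111-144140, higher under both): gattagcaaaCTAATTATAGatcaaaggcc
HSP150 (chrX:120216-120245, higher under AMB): acattttgagCTAAATTTAGattttggtca
CWP1 (chrXI:260736-260765, higher under AMB): tacgtcataaCTAAAAATAGcgttagccac
CCW14 (chrXII:903495-903524, higher under AMB): cggaaaattaCTATTTATAGaagcattgga
With any bases allowed in the spacer the motif was present before 13 members (36.1%) and 654 genes (10.9%), the additional members being FKS2, CHS1 and GAS1. A match describes the letters and is no measure of binding.

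The other factor downstream of Slt2, SBF, binds CGCGAAA or CACGAAA. These were searched on both strands in the same stretch and were present before 12 of 36 members (33.3%) and 854 of 6024 genes (14.2%). Of the 12, 2 were higher and 4 lower under AMB, and 1 was higher and 3 were lower under AMB-LF. Beside these counts stand 18.7% of all genes higher and 18.4% lower under AMB, and 14.1% and 15.1% under AMB-LF. SCW10, whose fall under AMB was among the largest, carries 3 matches, of which a pair overlaps on opposite strands. The window with the pair, with the match on the strand of the gene in capitals, and the window with the third match are shown because no other member had more than 2.
SCW10 (chrXIII:880716-880745): ggtctagatttCGCGAAAgaccgtttgcag
SCW10 (chrXIII:880616-880645): acttttaattgCGCGAAAcagcggacaaaa

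Among the 7 genes for synthesis of wall polymers, FKS2 (YGR032W, chrVII:548264-553951) fell under both treatments, CHS1 rose under AMB-LF, and the other 5 were not called. FKS2 encodes the stress-induced catalytic subunit of beta-1,3-glucan synthase. It was at 352, 397 and 351 CPM in the control for AMB and 200, 151 and 148 CPM under AMB. In the control for AMB-LF it was at 333, 367 and 338 CPM and under AMB-LF at 180, 191 and 139 CPM. All 6 treated libraries lay below all 6 untreated ones. The change was -1.18 ± 0.14 (adjusted p = 8.2e-05) under AMB and -0.96 ± 0.15 (adjusted p = 0.00084) under AMB-LF, with -1.03 and -1.11 for the controls exchanged. FKS1, the paralog that provides the glucan synthase of growing cells, was at 514 to 618 CPM under AMB and 579 to 688 CPM in its control, and at 608 to 680 CPM under AMB-LF and 444 to 588 CPM in its control. Its log2 fold changes were -0.14 ± 0.12 (adjusted p = 0.40) and 0.36 ± 0.13 (adjusted p = 0.064), neither called. Per kilobase FKS1 stood at 110 ± 10.4 CPM (SD, n = 3) and FKS2 at 64.5 ± 4.63 CPM in the control for AMB, and at 102 ± 9.41 and 29.2 ± 5.22 CPM under AMB.

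The chitin synthase genes CHS1, CHS2 and CHS3, the glucosamine synthesis gene GFA1 and the beta-1,6-glucan gene KRE6 had log2 fold changes between -0.21 (CHS3) and 0.15 (CHS1) under AMB and between -0.16 (GFA1) and 0.29 (CHS1) under AMB-LF. CHS1, for the repair synthase that acts at cell separation, was the only one of these 5 called in either comparison, with 0.29 ± 0.092 (adjusted p = 0.037) under AMB-LF. That call was lost in 9 of 12 fits that each left out 1 library, with values from 0.21 to 0.41 over all 12. GFA1, the first enzyme on the way to chitin precursors, had a negative value under AMB-LF (-0.16) and a positive one under AMB (0.10) with the labelled controls. With the controls exchanged it was called lower under AMB (-0.25, adjusted p = 0.017) and higher under AMB-LF (0.19, adjusted p = 0.048), and 11.8% of its coding sequence overlaps YKL104W-A on the other strand.

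Of the 8 remodelling enzymes, 2 were lower under AMB (SCW10 and GAS1), and under AMB-LF 2 were lower (SCW10 and YPS1) and UTR2 was higher. SCW10 (YMR305C, chrXIII:879063-880232) encodes a wall protein related to glucanases. It was at 419, 434 and 397 CPM in the control for AMB and 222, 191 and 210 CPM under AMB, and at 284, 292 and 320 CPM in the control for AMB-LF against 238, 232 and 221 CPM under AMB-LF. The treated libraries lay below the untreated ones in both, and the untreated groups did not overlap each other. The change was -1.01 ± 0.080 (adjusted p = 3.8e-06) under AMB and -0.36 ± 0.088 (adjusted p = 0.010) under AMB-LF, which without AMB-LF replicate 1 was -0.36 with an adjusted p of 0.10. Exchanged controls gave -0.52 and -0.85. Its paralog SCW4 had -0.24 ± 0.11 (adjusted p = 0.10) and 0.19 ± 0.12 (adjusted p = 0.27), neither called.

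UTR2 (YEL040W, chrV:78053-79456) and CRH1 encode paralogous enzymes that join chitin to glucan. UTR2 was at 601, 589 and 587 CPM in the control for AMB, 646, 695 and 723 CPM under AMB, and 389, 337 and 486 CPM in the control for AMB-LF against 734, 667 and 758 CPM under AMB-LF. The treated groups overlapped each other, and the control for AMB-LF stood lowest. The change was 0.22 ± 0.12 (adjusted p = 0.18) under AMB and 0.82 ± 0.13 (adjusted p = 0.0010) under AMB-LF. With the controls exchanged it was 0.76 (adjusted p = 0.00067) under AMB and 0.28 (adjusted p = 0.087) under AMB-LF, and with the controls pooled 0.47 (adjusted p = 0.054) and 0.48 (adjusted p = 0.073). CRH1 was at 449 to 566 CPM in all 12 HiSeq libraries and had log2 fold changes of -0.14 and -0.16, neither called.

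YPS1 (YLR120C, chrXII:386511-388220), a yapsin protease held at the surface by a lipid anchor, had the reverse order. It was at 149, 142 and 160 CPM in the control for AMB, 131, 135 and 112 CPM under AMB, and 208, 229 and 186 CPM in the control for AMB-LF against 118, 128 and 140 CPM under AMB-LF. Treated libraries lay below their controls in both, and the control for AMB-LF stood highest. The change was -0.25 ± 0.10 (adjusted p = 0.076), not called, under AMB and -0.68 ± 0.12 (adjusted p = 0.0014) under AMB-LF, which without AMB-LF replicate 1 was -0.47 with an adjusted p of 0.06. After the exchange of controls YPS1 was called under AMB (-0.71) and not under AMB-LF (-0.22).

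GAS1, the main beta-1,3-glucan elongating enzyme, was at 932 to 998 CPM under AMB and 1252 to 1338 CPM in its control, without overlap, and changed by -0.39 ± 0.085 (adjusted p = 0.0047). Under AMB-LF it was at 1041 to 1093 CPM and in that control at 989 to 1099 CPM, and the change was 0.05 ± 0.094 (adjusted p = 0.74). Exchanged controls gave -0.09 and -0.26, and the call moved from AMB to AMB-LF. The glucan enzyme genes BGL2 and EXG1 were not called under either treatment, with 0.18 and -0.21 under AMB and 0.21 and -0.17 under AMB-LF.

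The Pir proteins are held directly on beta-1,3-glucan, and their 4 genes did not move together. PIR3 (YKL163W, chrXI:144401-145378) was at 33.0, 35.6 and 30.5 CPM in the control for AMB and 47.3, 43.3 and 42.1 CPM under AMB, and at 27.7, 26.0 and 28.3 CPM in the control for AMB-LF against 45.8, 45.4 and 44.2 CPM under AMB-LF. All 6 treated libraries lay above all 6 untreated ones. The change was 0.41 ± 0.081 (adjusted p = 0.0029) under AMB and 0.75 ± 0.089 (adjusted p = 0.0001) under AMB-LF, and 0.71 and 0.45 with the controls exchanged. CIS3 (YJL158C, chrX:122265-122948) fell, from 689, 702 and 694 CPM to 490, 479 and 483 CPM under AMB and from 558, 684 and 664 CPM to 510, 502 and 535 CPM under AMB-LF. Again no treated library overlapped an untreated one. The change was -0.52 ± 0.086 (adjusted p = 0.00098) under AMB and -0.31 ± 0.096 (adjusted p = 0.031) under AMB-LF, where 6 of the 12 fits with 1 library left out lost the call (-0.36 to -0.25 over all 12).

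HSP150 (chrX:120449-121690) is the next gene to CIS3, 574 bases away on the other strand. It was at 2130 to 2349 CPM under AMB and 1587 to 1716 CPM in its control and rose by 0.45 ± 0.11 (adjusted p = 0.0075), and under AMB-LF it was at 1842 to 2198 CPM against 1465 to 1721 CPM (0.28 ± 0.12, adjusted p = 0.10, not called). The adjusted p under AMB was 0.077 without control for AMB replicate 1, at a value of 0.42. PIR1, which neighbours PIR3 at a distance of 1581 bases, was at 1265 to 1691 CPM in the 12 HiSeq libraries and had log2 fold changes of 0.00 and 0.18 with SEs of 0.10 and 0.11. Neighbouring Pir genes thus had unlike values in both pairs.

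The other mannoproteins held another such pair. CWP1 (YKL096W, chrXI:261132-261851) and CWP2 (YKL096W-A, chrXI:259253-259531) lie 1600 bases apart on the same strand, with no other coding gene of the annotation between. CWP2 was at 2648, 2478 and 2427 CPM in the control for AMB and 1633, 1567 and 1661 CPM under AMB, and at 2188, 2643 and 2217 CPM in the control for AMB-LF against 1654, 1584 and 1551 CPM under AMB-LF. All treated libraries lay below all untreated ones, with changes of -0.65 ± 0.10 (adjusted p = 0.00077) and -0.53 ± 0.12 (adjusted p = 0.0064), the latter -0.52 with an adjusted p of 0.08 without AMB-LF replicate 1. CWP1 was at 424, 426 and 454 CPM in the control for AMB and 620, 780 and 568 CPM under AMB, and at 558, 442 and 540 CPM in the control for AMB-LF against 453, 545 and 680 CPM under AMB-LF. It was higher without overlap under AMB and overlapped its control under AMB-LF, with changes of 0.62 ± 0.16 (adjusted p = 0.013) and 0.08 ± 0.18 (adjusted p = 0.78). The AMB value was 0.62 with an adjusted p of 0.078 without control for AMB replicate 1, and 0.33 with an adjusted p of 0.12 with the controls exchanged.

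TIR2 (YOR010C, chrXV:346195-346950), of the cold shock mannoprotein family, was at 13.8, 15.1 and 17.4 CPM in the control for AMB, 24.1, 24.1 and 20.2 CPM under AMB, and 16.2, 19.3 and 15.5 CPM in the control for AMB-LF against 21.2, 24.1 and 22.04 CPM under AMB-LF. Treated libraries lay above their controls in both. It rose by 0.57 ± 0.14 (adjusted p = 0.0071) under AMB, with an adjusted p of 0.085 at 0.44 without control for AMB replicate 1, and had 0.38 ± 0.14 (adjusted p = 0.067) under AMB-LF, where it was called with the controls pooled (0.48) and exchanged (0.54). FLO11 (YIR019C, chrIX:389572-393675) was at 22.6, 20.6 and 23.0 CPM in the control for AMB, 28.9, 27.2 and 24.5 CPM under AMB, and 24.3, 24.5 and 24.2 CPM in the control for AMB-LF against 35.6, 30.2 and 33.7 CPM under AMB-LF. Treated libraries again lay above their controls. The change was 0.24 ± 0.086 (adjusted p = 0.049) under AMB, a call lost in 8 of the 12 fits with 1 library left out (0.18 to 0.29 over all 12), and 0.53 ± 0.091 (adjusted p = 0.0014) under AMB-LF, which held in all 12. CCW14, an inner-layer mannoprotein gene, rose by 0.24 ± 0.074 (adjusted p = 0.025) under AMB, a call lost in 5 of those 12 fits (0.22 to 0.28 over all), and had 0.19 ± 0.082 (adjusted p = 0.096) under AMB-LF.

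The other 5 tested mannoprotein genes were not called in either comparison. CCW12, the most abundant member, was at 6287 to 9025 CPM and had log2 fold changes of 0.14 and 0.26. SED1, a main wall protein of stationary cells, had 0.01 and -0.13, and PST1, whose transcript is known to rise on wall damage, had 0.06 and 0.07. TIR1 had 0.01 and 0.36 and TIP1, both of the cold shock family, -0.15 and -0.25.

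The difference between the responses, the change under AMB-LF minus that under AMB, was called for 3 of 35 members, all with a positive sign, beside 17.5% of all genes. They were SCW10 (0.65 ± 0.12, adjusted p = 0.019), MID2 (0.44 ± 0.13, adjusted p = 0.043) and GAS1 (0.44 ± 0.14, adjusted p = 0.045), and UTR2 lay at the threshold with 0.60 ± 0.19 (adjusted p = 0.0501). All 3 were also called between the untreated groups, and none of them between AMB-LF and AMB. In the fits that left out 1 library, 9 of 12 lost the call of MID2 and 11 of 12 that of GAS1. The call of SCW10 was lost without AMB-LF replicate 1 (0.62, adjusted p = 0.19) and without control for AMB replicate 1 (0.66, adjusted p = 0.12), and in these fits 0 of all genes tested were called for the difference. The signs turned when the controls were exchanged, to -0.34 for SCW10, -0.34 for MID2 and -0.17 for GAS1, none called, and UTR2 turned to -0.48 (adjusted p = 0.068). A different set of 4 members was then called, all with a positive sign, beside 20.0% of all genes. These were TIP1 (1.09, adjusted p = 0.0062), YPS1 (0.49, adjusted p = 0.032), GFA1 (0.44, adjusted p = 0.013) and FLO11 (0.40, adjusted p = 0.034). In all, 23 of 35 members had opposite signs of the difference with the labelled and the exchanged controls. The exchange reverses only the part of the difference that comes from the untreated groups. The sign thus turns by arithmetic wherever the untreated groups differ by more than the treated groups do. The share of all genes whose sign turned is not given here, so the count cannot be read as particular to the members.

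Between the untreated groups 8 of 35 members were called, beside 31.8% of all genes. In the control for AMB-LF, TIP1 (0.60 ± 0.14, adjusted p = 0.0080), YPS1 (0.46 ± 0.12, adjusted p = 0.011) and GFA1 (0.35 ± 0.079, adjusted p = 0.0062) were higher. UTR2 (-0.54 ± 0.14, adjusted p = 0.010), SCW10 (-0.49 ± 0.087, adjusted p = 0.0022), MID2, PIR3 (-0.30 ± 0.091, adjusted p = 0.025) and GAS1 (-0.30 ± 0.094, adjusted p = 0.030) were lower. Without control for AMB replicate 1, the only library of its group on lane 1, 1 member was called, beside 10.6% of all genes. That library and the control for AMB-LF share lane 1, and within it all 8 members kept their direction. These libraries were part of the fit that called the 8, so this is no separate test either.

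Set against each other, the AMB-LF and AMB cultures gave no called member by edgeR's quasi-likelihood test, beside 0.33% of all genes. At an unadjusted p below 0.05 there were 2 members, a smaller share than that of all genes. The 2 are thus no sign of a difference particular to the members. DESeq2 and the likelihood ratio test each called 1 member, and both also called a larger share of all genes than the quasi-likelihood test did. The largest values were those of TIP1, at 135, 141 and 138 CPM under AMB-LF and 98.3, 96.2 and 94.1 CPM under AMB (0.49 ± 0.13, adjusted p = 0.21), and of FLO11 (0.35 ± 0.083, adjusted p = 0.15). The groups of both genes did not overlap. The log2 differences of all 35 members lay between -0.26 and 0.49, with a median of 0.05 beside 0.00 over all genes.

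Lactoferrin alone gave no called member of 35, beside 0.0% of all genes. The log2 fold changes lay between -0.12 and 0.19 with a median of 0.04, and their SEs reached 0.64 (CWP1). No member had an unadjusted p below 0.05, beside 8 of 5445 genes. The replicate numbers of LF and its control mark the day of the experiment. With that number as a block 3 members (MID2, TIR2 and HSP150) had an unadjusted p below 0.05 in edgeR, at 0.14, 0.19 and 0.17. Beside these stand 418 of 5445 genes, so the 3 are no sign of a change particular to the members, and 0 were called. The smallest adjusted p among the members was then 0.52, against 1 without the block, and DESeq2 with the block also called 0.

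For 4 members the libraries of different days lay far apart, and those of the same day close together. TIP1 was at 337, 166 and 100 CPM in the control libraries 1, 2 and 3 and at 340, 168 and 108 CPM in the LF libraries of the same numbers. CWP1 was at 85.1, 98.5 and 300 CPM and 94.7, 90.1 and 261 CPM in the same order. CWP2 was at 1085, 1418 and 2784 and 1100, 1412 and 3014 CPM, and SED1 at 1940, 2498 and 4733 and 2098, 2637 and 5408 CPM. Replicate 3 stood apart upwards for CWP1, CWP2 and SED1 and replicate 1 upwards for TIP1, in control and treated cultures alike, with ranges between the day means of 1.64, 1.41, 1.33 and 1.70 on the log2 scale. FKS2, which fell under both amphotericin B treatments, was at 373, 647 and 495 CPM in the control for LF and 399, 619 and 455 CPM under LF, which overlapped (-0.04 ± 0.25, adjusted p = 1). That SE includes the spread between days, and with the replicate number as a block the value was -0.03 ± 0.060 in edgeR, not called.

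**Figure D4:**
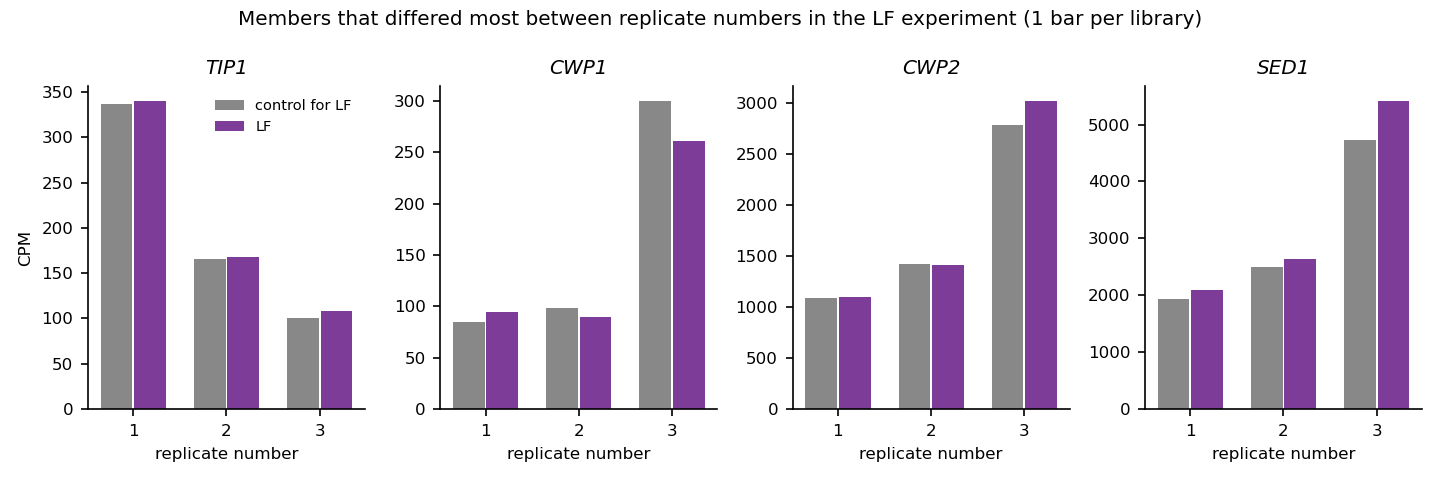
CPM of TIP1, CWP1, CWP2 and SED1 in each of the 6 NextSeq libraries, grouped by replicate number, with 1 bar per library and no error bars. Bars of the same number are close to each other, while replicate 3 is above the others for CWP1 (261 to 300 CPM against 85.1 to 98.5 CPM) and replicate 1 for TIP1.

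Among 81 further genes of the same pathways, outside the 36, 79 were tested, and 15 were higher and 7 lower under AMB and 11 higher and 3 lower under AMB-LF. The shares called, 27.8% and 17.7%, lay below the 37.1% and 29.2% of all genes called in these comparisons, which also stand beside the counts of the lists that follow. In the integrity cascade 6 of 21 were higher under AMB, led by MTL1 (0.73 ± 0.155, adjusted p = 0.0041), a sensor related to Mid2, and PTP3, a MAP kinase phosphatase gene, was lower (-0.44). Under AMB-LF MTL1 also had the highest value among the 3 called higher (0.58), and ROM1, a Rho1 activator, was lower (-0.49). Among 20 genes of glucan and chitin synthesis 2 were higher and 2 lower under AMB, from BNI4 (-0.36) to BIG1 (0.41), and 3 and 2 under AMB-LF, from PMI40 (-0.53) to SKT5 (0.37). Of 22 further remodelling enzymes tested 3 were higher and 3 lower under AMB, from ECM33 (-0.34) to YPS5 (0.75), and 2 were higher under AMB-LF, led by the sporulation glucan enzyme GAS2 (1.27). The yapsin genes YPS5 and YPS6 rose under AMB (0.75 and 0.71), and the other 4 yapsin genes were not called there, with -0.25 for YPS1, -0.22 for YPS3, -0.24 for MKC7 and -0.02 for YPS7. Under AMB-LF YPS5 and YPS6 had -0.26 and -0.19, neither called. With the controls exchanged their values were 0.06 and 0.10 under AMB, neither called, and 0.43 (not called) and 0.42 (called) under AMB-LF. Of 16 further wall protein genes tested 4 were higher and 1 lower under AMB, from AGA1 (-0.43), a subunit of the a-agglutinin of mating, to TIR3 (0.79), and 3 were higher under AMB-LF, led by TIR3 (0.96). For comparison, the daughter cell separation list had 1 of 7 higher in each treatment, DSE1 (0.38) under AMB and DSE4 (0.32) under AMB-LF. The list of genes expressed at the G2/M stage had 2 of 9 higher and 1 lower under AMB, from CLB2 (-0.25) to CDC20 (0.42), and 1 higher under AMB-LF, CDC20 (0.33).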

How the data were processed

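The data comprise 18 RNA-seq libraries of S288C, 12 from a HiSeq and 6 from a NextSeq, in 6 groups with 3 replicates in each. The deposited values are raw read counts per coding sequence. Mapping by the authors used TopHat and Bowtie against R64, and counting used HTSeq (0.5.3p9 in the submitters' processing notes), with later tool versions for the LF libraries, on either strand and leaving out reads in overlapping coding sequences. The authors also deposited group averages and the statistics of their own comparisons (fold changes, likelihood ratios, p and FDR), which were not used here. All 18 columns matched a sample, and 0 were left over.

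A gene was tested if 6 HiSeq or 3 NextSeq libraries reached 7 CPM. TMM factors were applied, and edgeR 4.0.16 (R 4.3.3) gave quasi-likelihood tests, with Benjamini-Hochberg adjustment over all genes tested (5456 and 5445). One model with a lane term covered all HiSeq groups, and the NextSeq groups had a model of their own without it. The code was tested on simulated counts. Settings varied were DESeq2 1.42.0, the likelihood ratio test, other scalings, no filter, no lane term, lane 1 alone, the controls exchanged or pooled, a replicate block, and each library left out. With 3 replicates per group the precision of a change is its SE, which was worked back from the change and its test statistic.

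The 36 members and the lists of further pathway genes, mating type markers and motifs were chosen with earlier results of these data known. Per-library values were given for the 6 signalling members and for members called under AMB, AMB-LF or their difference with an absolute log2 fold change of at least 0.5 in 1 of these, and for other lists the largest called change in each direction. HSP150, GAS1, CCW14, CHS1, FKS1, TIP1 and SED1 were described after their values were seen. Symbols and coordinates come from the RefSeq annotation of R64, which matched 6008 of 6692 genes and all 36 members. The coding sequences of the members share no stretch of 100 bases with another gene outside the overlaps of MID2 and GFA1, and PIR1 and PIR3 share stretches of 75 bases over about 1% of their length. In LF the replicate numbers pair the libraries, since the study's sources give 1 day per number and deviations of same-numbered libraries correlated at 0.88, 0.77 and 0.94 across genes. Python 3.11.15 (pandas 2.3.3, matplotlib 3.10.9) was used for tables and plots.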

Additional observations from a re-analysis of the deposited data

Results flagged for a closer look

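For 3 members the change under AMB-LF differed from that under AMB by edgeR's quasi-likelihood test of the difference itself: SCW10 (0.65 on the log2 scale, adjusted p = 0.019), MID2 (0.44, adjusted p = 0.043) and GAS1 (0.44, adjusted p = 0.045). SCW10 fell under both treatments, by 1.01 under AMB and by 0.36 under AMB-LF. The control for AMB-LF was lower than the control for AMB in all 3 genes, with log2 differences of -0.49, -0.39 and -0.30, while the treated groups differed by 0.16, 0.05 and 0.13, none called. The sources disagree on which control belongs to which treatment. The 3 differences turn negative when the controls are exchanged, which follows from the larger gap between the untreated groups. The part of the control assignment in them was not tested.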

How the results depend on the processing

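With the controls exchanged the sign turned for 9 of 35 members under AMB, 8 under AMB-LF and 23 for the difference, and those called in either setting were MID2 (0.27 under AMB, -0.066 under AMB-LF and -0.34 for the difference), GFA1 (-0.25, 0.19 and 0.44), GAS1 (-0.26 under AMB-LF and -0.17 for the difference), TIP1 (0.34 under AMB-LF and 1.09 for the difference), and the differences of SCW10 (-0.34) and YPS1 (0.49). Members called higher under AMB-LF numbered 12 with DESeq2, 12 without the lane term and 3 with library sizes alone. The share of all genes called there in either direction was slightly below that of the main fit with DESeq2. It was above that of the main fit without the lane term and with library sizes alone. The shares of all genes called higher in these fits are not given here, so these counts cannot be read as particular to the members. Lane 1 alone, with 7 libraries, gave 1 member higher and 2 lower under AMB, 3 higher and 2 lower under AMB-LF, 0 for the difference and 2 between the controls, beside 11.9%, 9.04%, 0.0925% and 9.89% of all genes called. The difference was called for 1 member with library sizes alone and for 6 without the lane term, beside 19.4% and 27.4% of all genes. AMB-LF against AMB gave 1 with DESeq2 and 1 with the likelihood ratio test (TIP1 in both). Both tests also called a larger share of all genes there than the quasi-likelihood test did. With 1 library left out, members higher ranged from 3 to 9 under AMB and from 4 to 9 under AMB-LF, those lower from 1 to 5 under AMB-LF, those called for the difference from 0 to 7 and those between the controls from 1 to 11, beside 17.9% to 41.6% of all genes called under AMB, 8.63% to 29.5% under AMB-LF and 10.6% to 32.7% between the controls, and 0 to 1198 genes for the difference. The cause of these shifts was not tested. With the replicate number as a block 11 members were called under AMB, 9 under AMB-LF, 0 for the difference and 4 between the controls, beside 29.9%, 18.6%, 0.11% and 20.0% of all genes. In these HiSeq groups no same-numbered pair of libraries had deviations that correlated above 0.0411 across genes. Some of these pairs lay on different lanes and the deviations were not adjusted for lane, so this does not settle whether same-numbered libraries share a day. In LF the block changed no call. Members with an Rlm1 motif numbered 13 in place of 10 with any bases in its spacer, and the limit to A or T was set after seeing the data. DAN1 was too low to test. With 3 libraries per group and SEs of about 0.1 for most members under AMB and AMB-LF, small changes were not detectable. In LF without the block the SEs were 0.64 for CWP1, 0.57 for TIP1, 0.50 for CWP2 and 0.48 for SED1. For these members larger changes could be missed there as well.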
